A study of Tachysurus fulvidraco x Tachysurus vachelli with 6 samples.

Results

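The histone and high mobility group (HMG) genes of the gill were picked by product name, as rows whose annotated product begins with histone H1, H2, H3 or H4 or with core histone, or that names a high mobility group or non-histone chromosomal protein. Histone methyltransferases, demethylases and acetyltransferases were left out. This gave 118 of the 25792 genes in the deposited table. Of them, 102 encode histones, 14 encode HMG or HMG-box proteins, and 2 were taken in by their product names without encoding either, the H2A deubiquitinase gene mysm1 and a gene similar to the histone H4 transcription factor. Only 9 of the 118 carry a gene symbol, and 109 have a locus number alone.

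The samples were juvenile hybrid yellow catfish (female Tachysurus fulvidraco crossed with male P. vachellii), and RNA was taken from the second gill of the left side. The 3 control libraries came from untreated fish and the 3 transport libraries from fish transported for 16 h. Whether a library stands for 1 fish or several is not given, so the p-values measure only how these samples vary, and that variation may be technical. The libraries held 42962760 to 58495713 estimated counts. Among the gill markers that matched by symbol, the keratin gene krt18 had a mean of 1249 ± 309.6 FPKM in controls and 907 ± 29.2 FPKM after transport (SD, n = 3 here and below). The ammonia channel gene rhcg had 147 ± 31.9 and 146 ± 29.1 FPKM. The ionocyte regulator gene foxi3 was listed at 0 in 5 libraries and at 0.07 FPKM in control replicate 3. FPKM is a fragment count scaled to transcript length and library size, so levels can be compared between genes.

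Histones H2A, H2B, H3 and H4 form the core particle around which DNA is wrapped, and linker histone H1 binds where the DNA enters and leaves it. In animals, the bulk histones are made in S phase from tandemly grouped genes whose messages end in a stem-loop in place of a poly(A) tail. Replacement variants such as H3.3, H2A.Z (H2A.V), macroH2A and H1.0 come from stand-alone, polyadenylated genes that are read throughout the cell cycle. HMGB proteins bend DNA, HMGN proteins bind the nucleosome itself and compete there with H1, and HMGA proteins bind AT-rich DNA. The labels do not state whether poly(A) RNA was selected or ribosomal RNA removed, so the part of library type in the levels of the stem-loop class was not tested.

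Most of the 102 histone genes were barely detected in these libraries. Of them, 89 lay on 10 scaffolds that each carried at least 3 histone genes, and the highest mean level among those 89 was 0.338 FPKM. The largest group, on scaffold NW_020848087.1 (212778 to 384905), held 22 histone genes. By product name these were 4 for H1, 5 for H2A, 7 for H2B and 6 for H3. Some of those named H3, such as LOC113662295, carry the KEGG orthology entry of the H4-like genes. A further 16 lay on NW_020848115.1 and 12 on NW_020847801.1. The other 13 histone genes stood alone on their scaffolds or apart from such groups, and 11 of them had enough counts to be tested. Only 6 of the 89 grouped genes passed that filter.

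**Figure D1:**
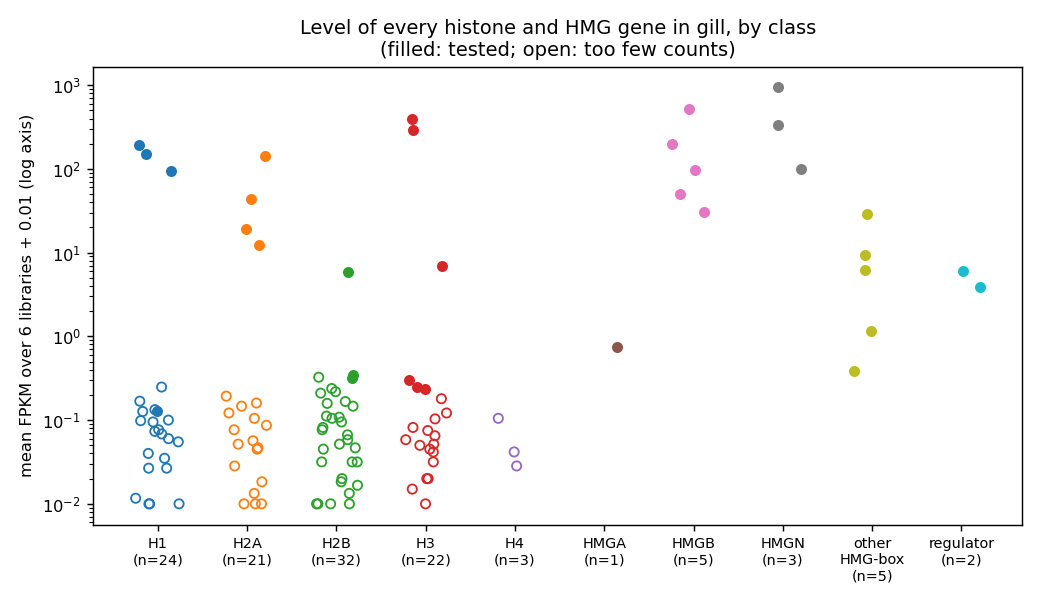
Mean level of each of the 118 genes over the 6 libraries, by class, on a log axis in FPKM with 0.01 added; filled points were tested and open points had too few counts. The grouped H1, H2A, H2B, H3 and H4 genes lie below 0.34 FPKM, while a few members of H1, H2A and H3 and all HMGB and HMGN genes lie above 10 FPKM.

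Altogether, 33 of the 118 genes passed the filter on low counts and 85 did not. By product name, the untested genes belonged to H1 (20 of 24), H2A (17 of 21), H2B (29 of 32), H3 (16 of 22) and H4 (3 of 3). Their highest value in any library was 1.05 FPKM, in the H2B-like gene LOC113662288 of control replicate 2, and 11 of them were listed at 0 in all 6 libraries. Summed over the 85, the level was 5.66, 8.99 and 5.68 FPKM in control replicates 1, 2 and 3 and 5.60, 3.22 and 3.62 FPKM in the transport replicates. The highest transport sum lay just below the lowest control sum. At about 4 deposited count units per fragment, these genes rest on a handful of fragments each, and a change in any one of them was not detectable at this depth. Of the 85, 23 had counts in controls only and 9 in transport only. By class these were 2 and 1 for H1, 9 and 0 for H2A, 7 and 3 for H2B, 5 and 4 for H3, and 0 and 1 for H4. The same counts over all low-count genes were not made. Control replicate 2 was also the deepest library, at 58495713 estimated counts. These counts are therefore descriptions, and no difference between the groups is read from them.

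The message pool of the 118 selected genes was carried by few of them. The 10 most abundant made up 88.5% of the summed FPKM of all 118. The most abundant, hmgn2, alone held 25.6% and ranked 123 of all 25792 genes by mean FPKM. The summed FPKM of the 118 genes was 4047, 4251 and 4240 in controls and 3060, 3200 and 3279 after transport, so all 3 transport libraries lay below all 3 controls. That sum is dominated by HMGN and HMGB genes. It leaves out abundant histone genes that the product-name rule did not match, such as the H2A gene LOC113645374 (mean 322.6 FPKM).

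After 16 h of transport, messages of 2 HMGN genes, 2 HMGB genes, 1 linker histone gene and 1 histone H3 gene fell, and no member was called higher. These 6 of the 33 tested members (edgeR quasi-likelihood test, Benjamini-Hochberg adjusted p under 0.05) compare with 3.46% of all 20771 tested genes called lower and 3.23% called higher. Among members with a mean of at least 100 FPKM, 6 of 10 were called lower, against 8.62% of all tested genes at that level. With a cut of 10 FPKM, 6 of 18 were called lower, and the share of all genes at that cut was not computed. Neither cut was part of the planned comparisons. At an unadjusted edgeR p under 0.05, 10 members were lower and 1 was higher, where 12.7% and 12.3% of all genes were. Control and transport FPKM were fully separate in 11 members with lower and 5 with higher transport values, beside 15.0% and 17.6% of all tested genes. Log2 fold changes (transport minus control) were negative in 24 of the 33, against 49.8% of all tested genes, with a median of -0.10 against 0.00 over all tested genes. In whole gill, fewer cells of a type and less RNA per cell cannot be told apart.

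An HMGN gene had the largest fall of the 6. LOC113650386 (scaffold NW_020847888.1, 1110824 to 1113833, plus strand), annotated as similar to HMG-14 and HMG-17, had 434, 440 and 463 FPKM in the controls and 221, 218 and 217 FPKM after transport. The groups lay far apart and the transport libraries were nearly equal, with a log2 fold change of -1.04 (SE 0.08, adjusted p = 0.00440 by edgeR). Of the 6 fits that each left out 1 library, the one without transport replicate 2 did not call it (edgeR adjusted p = 0.0629).

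Its relative hmgn2 (NW_020847818.1, 248382 to 251411, minus strand), which encodes HMG-17, had 973, 1208 and 1144 FPKM in controls and 710, 795 and 810 FPKM after transport. All transport values were below the lowest control, control replicate 1, with a log2 fold change of -0.54 (SE 0.11, adjusted p = 0.0394 by edgeR). The third gene of the family, hmgn3, had 108, 109 and 122 FPKM in controls and 80.4, 83.0 and 99.2 FPKM after transport. Its groups also did not overlap, but it was not called (edgeR log2 fold change -0.39, SE 0.12, adjusted p = 0.0994). DESeq2 called it (adjusted p = 0.0278).

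Within each library, the ratio of LOC113650386 to hmgn2 was 0.446, 0.364 and 0.405 in controls and 0.312, 0.275 and 0.268 after transport. The mean log2 ratio was lower by a difference of -0.51 after transport. This pair and the 3 further pairs below were picked with their values known, so the ratios are descriptions with no test.

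Of the 5 HMGB genes, 2 fell and 3 were not called. LOC113663125 (NW_020847770.1, 2010816 to 2013051, minus strand), similar to HMGB2, a form that in mammals is most abundant in dividing cells, had 566, 651 and 641 FPKM in controls. After transport it had 412, 404 and 430 FPKM. The highest transport value lay well below the lowest control, and the log2 fold change was -0.59 (SE 0.09, adjusted p = 0.0201 by edgeR). LOC113638293 (NW_020847778.1, 2444844 to 2448215, plus strand), similar to HMG-T, the HMGB1-type protein first described in trout, went from 245, 226 and 208 FPKM to 162, 171 and 173 FPKM. These groups did not overlap either (edgeR log2 fold change -0.44, SE 0.09, adjusted p = 0.0398).

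A further HMGB2-like gene, LOC113653063, had 31.9, 36.0 and 40.4 FPKM in controls and 26.7, 27.4 and 22.2 FPKM after transport. Its log2 fold change of -0.53 (SE 0.14) was close to that of the abundant copy, but it was not called (edgeR adjusted p = 0.0651). DESeq2 called it (adjusted p = 0.00865), and so did edgeR without control replicate 1 (adjusted p = 0.0446). None of the other settings called it, with edgeR or limma adjusted p from 0.0568 to 0.196. The HMGB3-like gene LOC113638686 had a mean of 52.2 ± 6.59 and 47.7 ± 3.08 FPKM. The HMGB1-like gene LOC113649435 had 96.2 ± 13.4 and 96.5 ± 2.90 FPKM, a log2 fold change of -0.01 (SE 0.12). The ratio of the HMGB2-like LOC113663125 to this HMGB1-like gene was 5.85, 5.95 and 7.77 in controls and 4.43, 4.10 and 4.41 after transport.

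**Figure D2:**
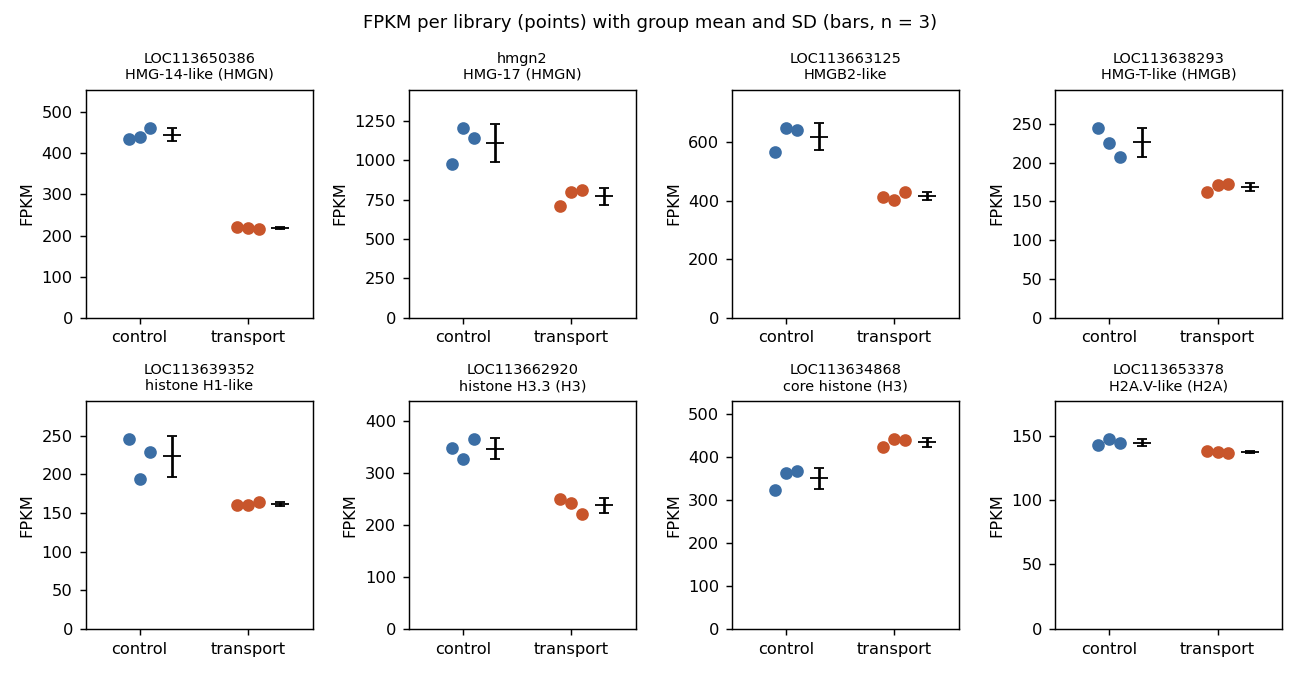
FPKM of 8 genes in each of the 3 control and 3 transport libraries (points), with the group mean and SD beside them, on axes that start at 0. The 6 called genes (LOC113650386, hmgn2, LOC113663125, LOC113638293, LOC113639352 and LOC113662920) are lower in every transport library than in every control; the H3 gene LOC113634868 is higher in every transport library, and the H2A.V-like gene LOC113653378 stays between 136 and 147 FPKM.

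Linker histone messages came from 3 genes. LOC113639352 (NW_020847779.1, 1314410 to 1316013, minus strand), annotated only as similar to H1, stood alone on its scaffold. It had 246, 194 and 229 FPKM in controls and 161, 160 and 164 FPKM after transport, without overlap (edgeR log2 fold change -0.48, SE 0.11, adjusted p = 0.0439). The H1x gene LOC113642823 had 204, 146 and 153 FPKM in controls and 116, 131 and 149 FPKM after transport. Its control replicate 1 was well above all the others, the groups overlapped, and it was not called (edgeR adjusted p = 0.216). H1.0, encoded by LOC113663727, is the linker form known from resting and differentiated cells. It was also highest in control replicate 1 (115 FPKM) and ranged from 72.1 to 107 FPKM after transport (edgeR log2 fold change -0.10, SE 0.18). The fourth tested H1 gene, LOC113649469, was at most 0.25 FPKM.

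The 2 abundant H3 genes had log2 fold changes of opposite sign, and 1 of them was called. LOC113662920 (NW_020848096.1, 205860 to 209928, plus strand) carries 3 product names, a centromeric H3-like protein, an unspecified histone and histone H3.3, and the KEGG orthology entry of histone H3. It had 349, 326 and 366 FPKM in controls and 249, 242 and 222 FPKM after transport, a fall without overlap (edgeR log2 fold change -0.56, SE 0.09, adjusted p = 0.0201). LOC113634868 (NW_020848166.1, 149164 to 151335, minus strand) is named only as a core histone and has the same KEGG entry. Its values were 323, 363 and 367 FPKM in controls and 423, 443 and 440 FPKM after transport. Every transport library was above every control, but it was not called (edgeR log2 fold change 0.29, SE 0.09, adjusted p = 0.104). DESeq2 called it higher (adjusted p = 0.0491).

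In the controls the levels of these H3 genes were nearly equal, with a ratio of LOC113662920 to LOC113634868 of 1.08, 0.899 and 0.997. After transport the ratio was 0.589, 0.548 and 0.504, a difference of -0.86 in mean log2 ratio. The summed level of the 22 selected H3 genes was 680, 700 and 745 FPKM in controls and 679, 692 and 668 FPKM after transport, so the groups overlapped. Other H3 genes lay outside the selection, and with them the sums were separate, at 1003, 1028 and 1115 FPKM in controls and 920, 935 and 900 FPKM after transport. Reads of near-identical H3 coding sequences could have been divided between these genes, and the split cannot be checked with these values.

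LOC113656496 encodes the centromeric H3 variant CENP-A, a protein that marks the site of the kinetochore. The gene had 6.70, 8.03 and 11.1 FPKM in controls and 4.41, 6.01 and 5.50 FPKM after transport. The groups did not overlap, and it was not called (edgeR log2 fold change -0.72, SE 0.25, adjusted p = 0.131). The other 3 tested H3 genes were below 0.52 FPKM in every library.

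None of the 4 tested H2A genes in the selection, all of them variants, was called by edgeR. MacroH2A.2 alone of these had an unadjusted edgeR p under 0.05, and DESeq2 called it. An H2A gene that the product-name rule did not match was more abundant than any of them (LOC113645374, mean 322.6 FPKM). Its transport values lay below all controls, and it was not called (edgeR adjusted p = 0.180). The H2A.V-like gene LOC113653378, a variant placed at promoters, was the steadiest of the abundant members at 145 ± 2.58 and 137 ± 0.750 FPKM (edgeR log2 fold change -0.09, SE 0.08). The transport values of 136 to 138 FPKM all lay below the controls of 142 to 147 FPKM. H2AX, whose phosphorylated form marks DNA breaks, is encoded by LOC113655181 and had 40.7 ± 6.43 and 46.2 ± 9.90 FPKM, with overlapping groups.

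The macroH2A genes encode H2A forms with a large globular tail. MacroH2A.2 (LOC113639879) had 18.0, 11.2 and 16.3 FPKM in controls and 8.74, 8.12 and 11.0 FPKM after transport (edgeR log2 fold change -0.72, SE 0.21, adjusted p = 0.0910). With DESeq2 its adjusted p was 0.0183. MacroH2A.1 (LOC113657235) had 17.7, 17.9 and 18.1 FPKM in controls and 21.4, 19.9 and 19.3 FPKM after transport (edgeR log2 fold change 0.15, SE 0.09, adjusted p = 0.362). Control and transport values were separate for both, in opposite directions, and edgeR called neither. The ratio of macroH2A.2 to macroH2A.1 was 1.02, 0.629 and 0.900 in controls and 0.409, 0.409 and 0.569 after transport.

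The selected H2B and H4 genes had low levels, although an H2B gene that the product-name rule did not match was abundant (LOC113645379, mean 102.9 FPKM). The most abundant selected H2B gene, LOC113650569, was listed at 0 in control replicate 1, at 7.46 and 3.86 FPKM in the other controls, and at 7.79, 7.59 and 8.50 FPKM after transport. Its estimate was uncertain (edgeR log2 fold change 1.05, SE 1.24). LOC113658755, the H2B gene with the smallest p, was at most 0.61 FPKM (edgeR adjusted p = 0.401), and the other tested one, LOC113651103, at most 0.48 FPKM. No H4 gene was tested, and the highest value of a selected H4 gene in any library was 0.38 FPKM.

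None of the remaining 6 HMG genes and 2 regulators was called by edgeR or DESeq2 or had an unadjusted p under 0.05. The TOX family is named after the thymocyte selection-associated protein that tox encodes. Its member tox2 had a mean of 9.38 FPKM over all libraries, tox4 6.18, tox 1.15 and tox3 0.373, with edgeR adjusted p from 0.809 to 0.966. Hmga2, an architectural protein of embryonic and stem cells in mammals, had 0.44, 0.76 and 0.72 FPKM in controls and 0.85, 0.79 and 0.81 FPKM after transport (edgeR adjusted p = 0.521). The deubiquitinase gene mysm1 and the H4 transcription factor-like gene LOC113660438 had means of 6.09 and 3.86 FPKM and edgeR adjusted p of 0.841 and 0.822.

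**Figure D3:**
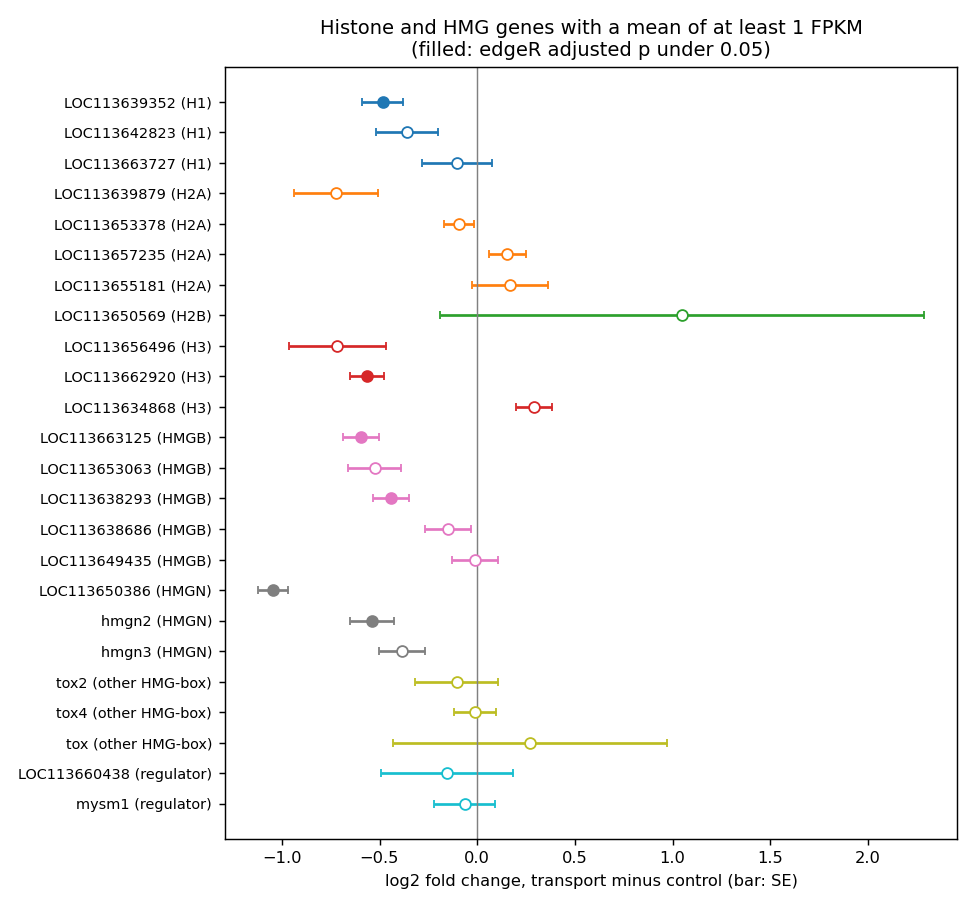
Log2 fold change (transport minus control) with its SE for 24 members with a mean of at least 1 FPKM, the 2 regulators included, ordered by class; filled points have an edgeR adjusted p under 0.05. All HMGN, HMGB and H1 genes shown and 2 of the 3 H3 genes lie left of 0, LOC113650386 farthest at -1.04 and LOC113649435 nearly at 0 (-0.01). Of the members with a mean of at least 100 FPKM, only LOC113634868 lies right of 0, at 0.29. Less abundant genes also lie there, such as H2AX (LOC113655181, 0.17) and, farthest right, the H2B gene LOC113650569 (1.05, SE 1.24).

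The calls did not all hold when 1 library was left out. Without transport replicate 2 none of the 6 stayed called (edgeR adjusted p from 0.0629 to 0.192), and 3 genes were called in the whole table, against 1389 with all libraries. LOC113650386 alone stayed called without control replicate 3, transport replicate 1 or transport replicate 3. LOC113662920 and LOC113663125 lost their call in those 4 fits, hmgn2 and LOC113639352 in 5 of 6, and LOC113638293 in all 6. Each of the 6 kept a negative log2 fold change in every such fit, where their highest unadjusted edgeR p was 0.0147. With the replicate number as a block, none of the 6 stayed called (edgeR adjusted p from 0.0531 to 0.142). The other 8 settings kept all 6 calls, with edgeR, DESeq2 or limma adjusted p of at most 0.0473.

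Genes of the cell cycle were lower in the same libraries. Of 44 tested S phase genes edgeR called 10 lower and none higher, beside 3.46% and 3.23% of all tested genes. At an unadjusted edgeR p under 0.05, 32 were lower and 1 higher, beside 12.7% and 12.3% of all tested genes. DESeq2 called 28 lower and 0 higher, beside 1750 and 1586 of all 20771 tested genes. The median log2 fold change of the list was -0.63. Its summed level ranged from 656 to 841 FPKM in controls and from 484 to 523 FPKM after transport. Examples of genes called lower by edgeR were the replicative helicase subunit gene mcm4 (22.9 ± 4.13 to 11.9 ± 0.746 FPKM, edgeR adjusted p = 0.0208) and the thymidylate synthase gene tyms (11.4 ± 0.0306 to 5.96 ± 1.02 FPKM). Of 35 mitosis genes edgeR called 21 lower, 31 were lower at an unadjusted edgeR p under 0.05, and DESeq2 called 28 lower. None was higher by any of these. Their median was -0.90, with sums of 426 to 583 against 256 to 278 FPKM. Among the mitosis genes called lower were the condensin gene smc2 (log2 fold change -0.99) and the topoisomerase gene top2a (-1.11). Earlier results of these data had already shown that cell cycle genes were lower. The part of dividing cells in the fall of the histone and HMG messages was not tested.

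Among 27 tested histone chaperone and histone supply genes edgeR called none, and their median log2 fold change was -0.10. At an unadjusted edgeR p under 0.05, 5 were lower and 3 higher, beside 12.7% and 12.3% of all tested genes. DESeq2 called 4 lower and 3 higher, beside 1750 and 1586 of all 20771 tested genes. The chaperone and supply gene with the smallest p was tonsl, whose product reads newly made histones behind the replication fork (2.26 ± 0.322 to 1.31 ± 0.118 FPKM, edgeR adjusted p = 0.0514). Of 37 histone modifier genes edgeR called 1, kdm1a; at an unadjusted edgeR p under 0.05, 2 were lower and 3 higher, and DESeq2 called 1 lower and 2 higher. It encodes the demethylase LSD1 and rose from 17.2 ± 2.14 to 26.8 ± 0.764 FPKM (edgeR adjusted p = 0.0311), while the median of that list was 0.04.

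**Figure D4:**
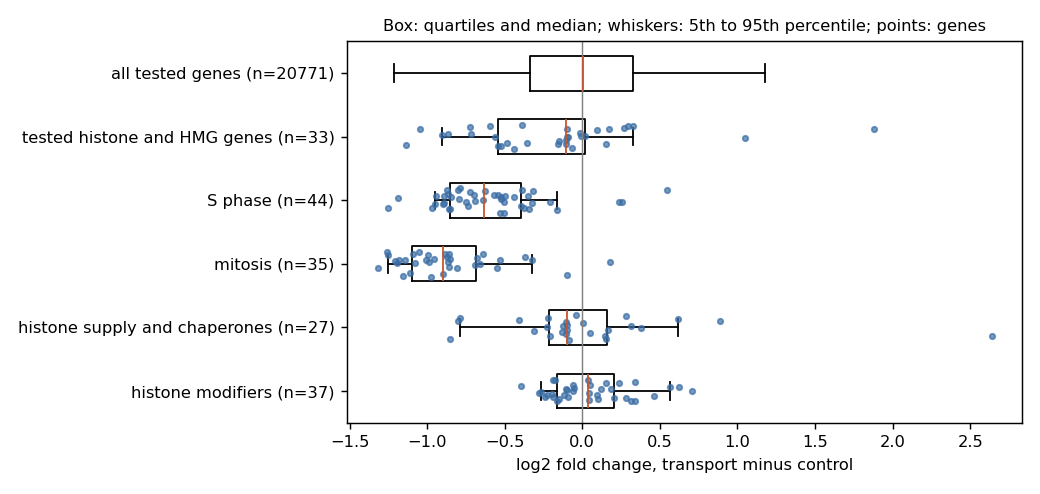
Log2 fold change (transport minus control) of all 20771 tested genes, the 33 tested histone and HMG genes, and 4 gene lists; boxes give quartiles and median, whiskers the 5th to 95th percentile, and points single genes. The S phase and mitosis genes lie mostly left of 0 (medians -0.63 and -0.90), the histone and HMG genes spread over both sides (median -0.10), and the chaperone and modifier lists centre near 0.

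Some markers of other cell types were called by edgeR, where 3.46% of all tested genes were called lower and 3.23% higher. Among B-cell markers 4 of 6 tested fell, with summed levels of 47.4 to 52.5 FPKM in controls and 29.7 to 32.6 FPKM after transport, and pou2af1, bank1 and cd79a among them. For endothelium and pillar cells 1 of 5 fell (flt4), with sums of 12.9 to 16.5 and 10.7 to 12.0 FPKM. In the gill epithelium list tp63 fell while grhl1 and evpl rose, of 4 tested, with sums of 1092 to 1711 and 1127 to 1170 FPKM. Of 5 ionocyte markers 1 rose (atp1b1, 384 ± 27.9 to 651 ± 93.1 FPKM). This gene made up most of the ionocyte sums of 531 to 674 and 724 to 1007 FPKM. Log2 fold changes were negative in 2 of the 5, so these sums do not show a rise of the ionocyte list as a whole. Of 5 neutrophil and macrophage markers lyz rose (log2 fold change 1.38), with sums of 54.4 to 85.8 and 96.1 to 104 FPKM. In that list csf1r was lower after transport (13.4 ± 3.76 to 7.22 ± 0.853 FPKM) but was not called (edgeR adjusted p = 0.059). At an unadjusted edgeR p under 0.05, and with DESeq2, 1 of the 5 was lower and 1 higher. Their median log2 fold change was 0.0062, so the higher sums do not show a rise of the list as a whole. No marker was called among 5 for skeletal muscle (smallest p ttn), 3 for erythrocytes (tal1) and 5 for T cells (cd3e), at edgeR adjusted p of 0.625, 0.0581 and 0.619. DESeq2 called 1 of these higher, an erythrocyte marker, which also was the 1 with an unadjusted edgeR p under 0.05. That marker, tal1, had 3.77 ± 1.17 FPKM in controls and 8.01 ± 1.34 FPKM after transport, without overlap (edgeR log2 fold change 1.06, SE 0.26). Summed levels overlapped between the groups for all of these lists. They were 29.8 to 160 and 14.4 to 169 FPKM for muscle, 33.3 to 63.8 and 53.9 to 68.1 FPKM for erythrocytes, and 115 to 225 and 129 to 226 FPKM for T cells. The part of these cell types in the histone and HMG values was not tested.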

How the data were processed

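RNA sequencing of 6 gill libraries, 3 control and 3 transport, was analysed from 1 deposited table. HISAT and StringTie appear, with no version, in the submitters' processing notes. For the genome build nothing was given in the sources used here. Per the file headers, the authors gave FPKM and a count per gene and library. The deposited counts are whole numbers but were treated as estimated counts: a value of 4 occurred in 417 to 485 genes per library, against 79 to 113 at 3 and 69 to 87 at 5, so 1 fragment is worth about 4 units. Overlapping genes, antisense partners and near-identical copies cannot be told apart in them.

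Transport was compared with control by the two-sided quasi-likelihood F test of edgeR 4.0.16 (R 4.3.3) on all 20771 genes passing filterByExpr (minimum count 10, minimum total 15), with TMM scaling, no covariates and Benjamini-Hochberg adjustment over all of them. Counts needed no rounding. Each SE was taken as the absolute log2 fold change over the root of F. FPKM values are the deposited ones. Members were classed by product name, with LOC113662920 and LOC113634868 placed in H3 by their deposited KEGG entry. Some untested genes named H3-like carry the KEGG entry of the H4-like genes. They were kept in H3, so the split of untested genes between H3 and H4 is uncertain. Members and gene lists (4 pathway lists, 8 marker lists, matched by symbol) were chosen with earlier results of these data known. Named genes were every called member, the most abundant and the smallest-p member of each class, and up to 3 called genes of each list. Further named members, and the ratios, were picked with their values known. On simulated counts for this comparison (20771 genes, 200 changed), 21% of the 2-fold and 69% of the 4-fold changes were found by edgeR, with 3.23% of 93 calls false. The changed genes were drawn at random from those above a low level. These shares therefore do not give the recovery among the abundant members. Alternatives used DESeq2 1.42.0, limma 3.58.1, other scalings and filters, a replicate block and each library left out. The values of 1 member are not reported here.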

Additional observations from a re-analysis of the deposited data

How the results depend on the processing

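DESeq2 called 3336 of the 20771 tested genes (1750 lower, 1586 higher) and 10 of the 33 tested histone and HMG genes (9 lower, 1 higher). With edgeR these were 1389 and 6, and each of the other scalings, filters and limma fits called 6 members. The labels do not say whether the replicate numbers pair the samples. Same-numbered libraries showed no shared deviation (correlations -0.07, -0.03 and -0.04), which cannot show that the samples were unpaired. With the replicate number as a block edgeR called 14 genes and 0 members. The 6 then had edgeR adjusted p from 0.0531 to 0.142 and unadjusted p of at most 0.0122. DESeq2's call of LOC113634868 (adjusted p = 0.0491) is the 1 member called higher. Leaving out 1 library gave 3 to 1498 calls over all genes, 0 to 5 among the members, and a members' median from -0.27 to -0.14 over the 33 to 37 members that each fit tested. Without a filter on low counts 107 members were tested and the median was -0.48, while the 33 kept a median of -0.10. A wider member rule, chosen after seeing the data, gave 7 calls and a median of -0.15. With limma the sign turned for tox4 (0.0061 and 0.0070) and LOC113649435 (0.013 with either pseudocount). With 1 library left out it turned for tox4 (-0.044 to 0.018), tox2 (-0.24 to 0.10), tox (-0.11 to 1.45), LOC113649435 (-0.11 to 0.090), LOC113655181 (-0.022 to 0.29), mysm1 (-0.16 to 0.027), LOC113660438 (-0.42 to 0.17) and LOC113663727 (-0.23 to 0.047), none of them called. The causes were not tested.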

Other observations

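A further 9 histone genes had product names that the selection did not match, such as those with PREDICTED before the name, and 4 of them were tested. The H3.3-like gene LOC113663722 had 205, 203 and 238 FPKM in controls and 137, 146 and 135 FPKM after transport. This was a fall without overlap (edgeR log2 fold change -0.65, SE 0.10, adjusted p = 0.0202), beside -0.56 in LOC113662920. The other H3.3-like gene, LOC113640160, had 118, 126 and 131 FPKM in controls and 103, 97.2 and 97.7 FPKM after transport and was not called (log2 fold change -0.35, SE 0.09, edgeR adjusted p = 0.0656). Of the 4 abundant H3 genes in the table, LOC113634868 was thus the only one with a positive log2 fold change.

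The other tested genes of these 9 were an H2A gene and an H2B gene on opposite strands of NW_020847763.1, each above every selected gene of its own class in mean FPKM. The H2A gene LOC113645374 (1272269 to 1273202, plus strand) had 346 ± 30.4 FPKM in controls and 299 ± 4.70 FPKM after transport (edgeR adjusted p = 0.180). Its neighbour LOC113645379 (1271215 to 1272256, minus strand) encodes H2B and had 97.0 ± 15.1 and 109 ± 5.86 FPKM (edgeR adjusted p = 0.532). The remaining 5 genes were below 0.57 FPKM in every library.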
